A study of Mus musculus with 32 samples.

Results

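The genes described here are 6 members of the STAT family of transcription factors (Stat2, Stat3, Stat4, Stat5a, Stat5b and Stat6) and 3 members of the SOCS family of feedback inhibitors (Socs1, Socs3 and Cish). They were taken from the deposited tables by gene symbol, and these 9 genes of 22216 in the tables were each found once in all 32 libraries. The study measured RNA in mouse dendritic cells grown from bone marrow with GM-CSF, a growth factor that drives marrow precursors towards dendritic cells. The cells lacked Lmp7 and Mecl1, inducible catalytic subunits of the immunoproteasome, or were wild type. Maturation was set off with 1 µg/mL of lipopolysaccharide (LPS), the outer membrane glycolipid of Gram-negative bacteria that Toll-like receptor 4 recognises; exposure lasted 1, 2 or 6 h, and cells without LPS served as the 0 h point. The labels compare the transcriptomes of both genotypes over this time course.

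The 8 groups were Lmp7-/-Mecl1-/- cells (dKO) at 0, 1, 2 and 6 h of LPS and WT cells at 0, 1, 2 and 6 h, with 4 libraries in each. All were of the C57BL/6 strain, all had been grown in GM-CSF, and all were harvested on day 9 of culture. The genotype label names a deletion of the whole animal and no Cre or cell type, so the marrow precursors are taken to lack both subunits too. The labels call the 4 libraries of a group experimental replicates and do not say whether they came from separate mice, so a p-value here rests on variation among libraries, part or all of which may be technical.

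STAT proteins wait in the cytoplasm until a cytokine receptor and its JAK kinases phosphorylate them, then pair up, enter the nucleus and switch on target genes. STAT2 works with IRF9 in the complex that answers type I interferon, STAT3 answers IL-6 and IL-10, STAT4 answers IL-12, STAT5A and STAT5B answer GM-CSF and related growth factors, and STAT6 answers IL-4 and IL-13. Socs1, Socs3 and Cish are themselves STAT targets in many cells, and their proteins block the receptors or kinases that switched them on.

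The sequences just upstream of 4 of these genes are shown because they hold the letters of STAT or interferon response motifs beside genes that moved early or late after LPS. They were read from RefSeq promoter windows of the GRCm38.p6 build, which covered 9 of 9 members with 12 windows of 300 bases. Each is printed 5′ to 3′ on the strand of the gene, with motif letters in capitals. Socs3 (chr11:117969367-117969616, minus strand) and Cish (chr9:107296409-107296678, plus strand) held TTCNNNGAA, the letters of a STAT dimer site, which reads alike on both strands. Stat2 (chr10:128270248-128270497, plus strand) and Socs1 (chr16:10785537-10785786, minus strand) held GAAA, any 2 bases and GAAA again on one strand or the other, the core letters of an interferon-stimulated response element.
Socs3: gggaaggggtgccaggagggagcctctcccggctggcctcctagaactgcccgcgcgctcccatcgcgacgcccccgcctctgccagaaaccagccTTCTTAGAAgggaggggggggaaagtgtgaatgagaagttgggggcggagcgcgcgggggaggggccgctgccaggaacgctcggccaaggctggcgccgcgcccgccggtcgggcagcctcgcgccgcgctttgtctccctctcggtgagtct
Cish: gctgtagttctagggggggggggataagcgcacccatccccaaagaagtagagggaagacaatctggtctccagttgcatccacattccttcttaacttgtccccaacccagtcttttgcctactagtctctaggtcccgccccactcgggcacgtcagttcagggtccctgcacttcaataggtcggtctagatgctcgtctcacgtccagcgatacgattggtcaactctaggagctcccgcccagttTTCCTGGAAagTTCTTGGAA
Stat2: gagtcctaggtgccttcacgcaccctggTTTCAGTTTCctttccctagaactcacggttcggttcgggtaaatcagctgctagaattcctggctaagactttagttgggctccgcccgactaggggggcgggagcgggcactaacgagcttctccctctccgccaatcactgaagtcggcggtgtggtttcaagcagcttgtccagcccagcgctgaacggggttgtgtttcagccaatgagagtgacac
Socs1: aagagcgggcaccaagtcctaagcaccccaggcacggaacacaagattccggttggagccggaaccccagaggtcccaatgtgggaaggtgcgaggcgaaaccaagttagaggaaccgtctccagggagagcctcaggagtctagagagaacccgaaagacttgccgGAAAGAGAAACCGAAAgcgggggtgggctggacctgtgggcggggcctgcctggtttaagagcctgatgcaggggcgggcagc
The Socs3 match lay 154 to 146 bases before the start site. Cish had a pair of matches just after its start site, at bases 1 to 9 and 12 to 20. In Stat2 the match was 222 to 213 bases upstream and read on the opposite strand. In Socs1 a match 83 to 74 bases upstream overlapped another 77 to 68 bases upstream. Stat4 also held this second motif, 97 to 88 bases before 1 of its start sites. Among 32851 windows of the same length, 8.3% held TTCNNNGAA and 3.44% held the second motif on either strand. A match describes letters only and does not show that a factor bound there.

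The deletion was visible in the libraries. Psmb8, the gene of Lmp7, lay between 2.67 and 7.42 RPKM in dKO libraries and between 150.3 and 312 RPKM in WT libraries, and Psmb10, the gene of Mecl1, lay between 2.37 and 17.1 RPKM in dKO libraries and between 41.6 and 131 RPKM in WT libraries. RPKM, reads scaled to gene length and library size, is the authors' unit. In 5 dKO libraries the LPS state did not match the label: over 11029 genes outside the members and the lists used here, each correlated best with the WT mean of another time. They were dKO 0 h replicate 2 (nearest WT time 1 h), dKO 1 h replicate 2 (2 h), dKO 2 h replicate 2 (0 h), dKO 2 h replicate 4 (6 h) and dKO 6 h replicate 4 (2 h). In replicate 2 the nearest times were thus the labelled times 0, 1 and 2 h in another order. In replicate 4 the 2 h library was nearest to 6 h and the 6 h library to 2 h. Whether labels were exchanged was not tested, and no label was changed. With the WT mean of their own labelled time the 5 libraries correlated at 0.835 to 0.946, and the remaining 11 dKO libraries at 0.972 to 0.980. Results below are therefore given with all 32 libraries as labelled, without these 5, or both ways. The sums of cell type markers that follow use all 32. All 5 dendritic cell markers in the list used (Itgax, Flt3, Zbtb46, Cd209a and Ciita) were detected, and their summed level at 0 h was 454 to 576 RPKM in dKO libraries and 560.3 to 600.5 RPKM in WT libraries. The 6 macrophage and monocyte markers summed to 677 to 1484 RPKM in dKO libraries at 0 h and 595 to 658 RPKM in WT libraries. The dKO range includes dKO 0 h replicate 2, nearest to WT cells at 1 h. Cd14, one of these markers, rose by 3.36 on the log2 scale at 1 h of LPS in WT cells. The part of LPS state in these sums was not tested. The 6 eosinophil, mast cell and basophil markers summed to 182 to 415 RPKM in dKO libraries and 389 to 504 RPKM in WT libraries at 0 h. Of this list Epx, Mcpt8, Cpa3 and Kit were already called lower in dKO cells at 0 h with all libraries. After LPS the sums of this list were apart, with at most 511 RPKM in dKO and 675 to 989 RPKM in WT libraries at 1 h. They were 195 to 445 RPKM in dKO and 732 to 1248 RPKM in WT libraries at 2 h. At 6 h they were 295 to 457 RPKM in dKO and 511 to 895 RPKM in WT libraries. At 1 h and 2 h all 5 of these markers that could be tested were called lower in dKO cells. Macrophage and monocyte sums were higher in dKO libraries without overlap at 1 h (1495 to 1656 RPKM, against 1096 to 1303 RPKM in WT). The same held at 6 h (779 to 1531 RPKM, against 558 to 694 RPKM in WT), while at 2 h they overlapped. The dKO range at 6 h includes dKO 6 h replicate 4, nearest to WT cells at 2 h. Of the 6 macrophage and monocyte markers only Mertk was called higher at 1 h (0.81) and only Csf1r at 6 h (1.34), with all libraries. Ly6c2 and Emr1 were below 0 at both times and Fcgr1 at 1 h, without being called. Dendritic cell sums were lower in dKO libraries without overlap at 1 h (402 to 462 RPKM, against 472 to 486 RPKM in WT). They overlapped at 2 h and 6 h, where the dKO ranges include libraries off their label. Single dendritic cell markers were still called lower in dKO cells with all libraries. These were Zbtb46 (-0.99), Flt3 (-0.84) and Cd209a (-2.34) at 2 h, and Zbtb46 (-0.67), Flt3 (-1.06) and Ciita (-0.85) at 6 h. Itgax was called at neither time. T cell markers summed to at most 4.00 RPKM and B cell markers to at most 1.31 RPKM in any library. No NK cell or B cell marker reached 1 RPKM in 4 libraries. Neutrophil markers summed to 6.28 to 35.9 RPKM. At 1 h their sums were 11.4 to 17.1 RPKM in dKO and 22.3 to 34.6 RPKM in WT libraries. At 2 h they were 9.18 to 13.5 RPKM in dKO and 23.4 to 35.9 RPKM in WT libraries. At 0 h and 6 h they overlapped. Ltf of this list was called lower in dKO cells at each time with all libraries. The part of these differences in the results below was not tested, and in bulk RNA fewer cells of a type and less RNA per cell cannot be told apart.

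All 9 genes were well expressed in dendritic cells, and LPS reordered them. RPKM is a level per length, so genes can be set beside each other. In unstimulated WT cells Cish was highest at 171 ± 12.7 RPKM (SD, n = 4), followed by Socs3 at 113 ± 6.60 RPKM, Stat6 at 85.9 ± 3.48 RPKM, Stat2 at 63.9 ± 1.94 RPKM and Stat3 at 52.4 ± 3.29 RPKM. Socs1 at 39.7 ± 6.51 and Stat5a at 34.4 ± 2.24 RPKM overlapped in range, as did Stat4 at 22.4 ± 3.16 and Stat5b at 20.7 ± 1.20 RPKM. In unstimulated dKO cells without the 1 library off its label, Cish was also highest at 177 ± 12.9 RPKM (SD, n = 3), and Stat4 was lowest at 7.22 ± 1.90 RPKM, below Stat5b at 19.5 ± 1.30 RPKM. After 1 h of LPS Socs3 led, at 582 ± 14.9 RPKM in dKO and 537 ± 55.8 RPKM in WT cells. After 6 h Socs3 and Stat2 overlapped at the top in both genotypes, at 289 ± 23.3 and 283 ± 11.8 RPKM in dKO cells and at 298 ± 14.7 and 296 ± 19.0 RPKM in WT cells, ahead of Stat5a at 191 ± 7.40 RPKM in dKO and 248 ± 3.81 RPKM in WT cells.

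**Figure D1:**
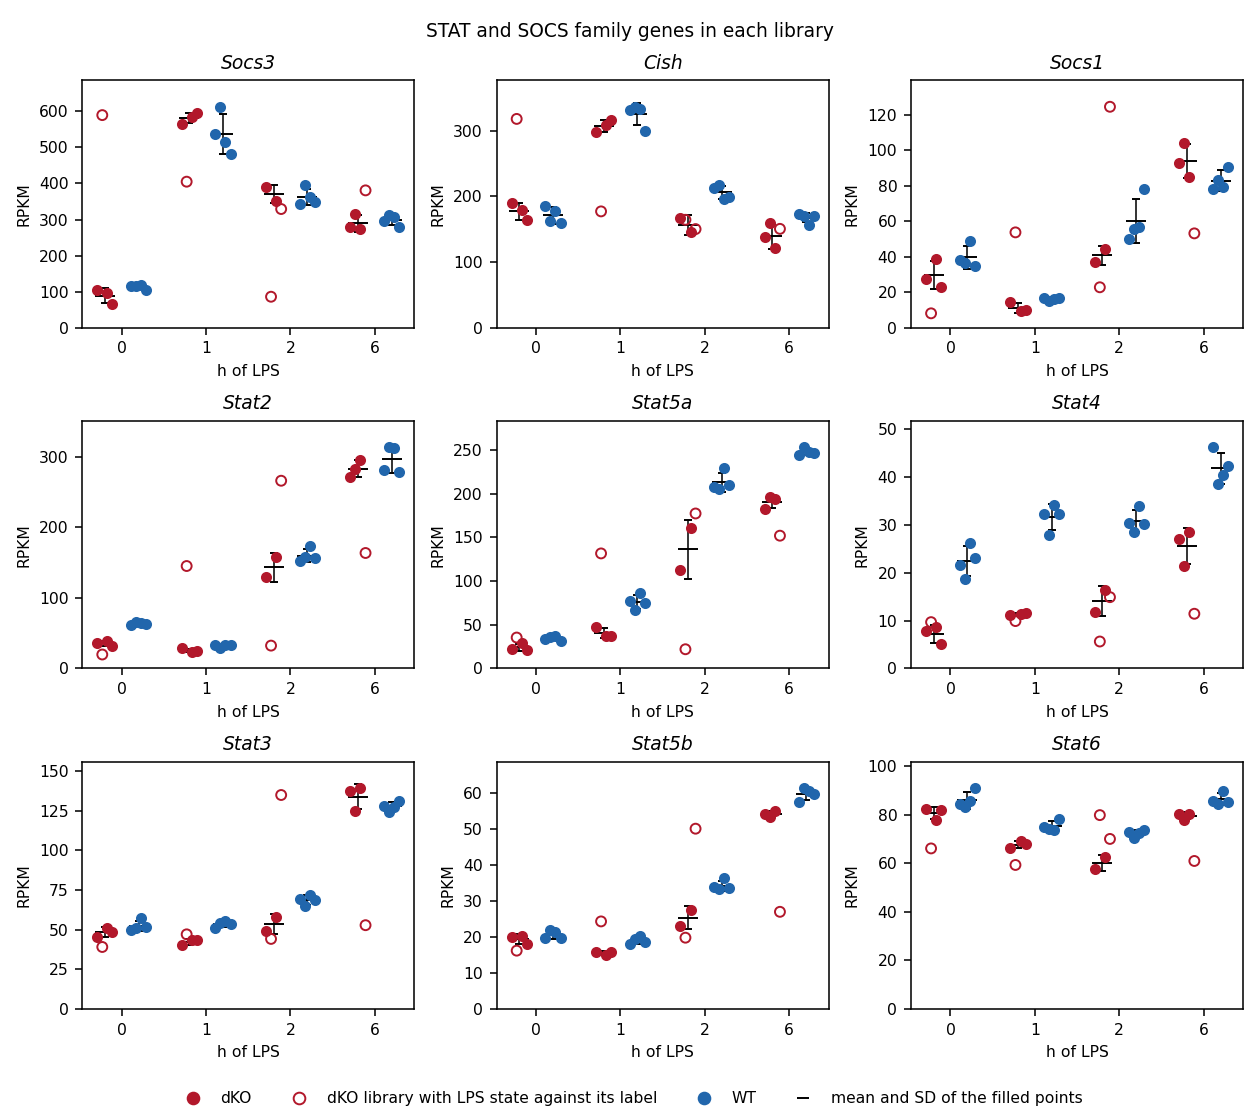
Level in RPKM of each of the 9 genes by hours of LPS, dKO left of WT at each time, 1 point per library. Bars are the mean and SD of the filled points, and open circles are the 5 dKO libraries whose LPS state goes against the label. Stat4 points of dKO lie below those of WT at every time, and Socs3 and Cish peak at 1 h.

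LPS raised the SOCS genes at different hours in WT cells. Socs3, whose protein shuts off IL-6 family receptors, had 539, 613, 515 and 481 RPKM at 1 h of LPS, against 114, 115, 119.7 and 104 RPKM at 0 h. Cish, named for a cytokine-inducible SH2 domain and known as a brake on STAT5 signalling, had 332, 336, 334 and 299.6 RPKM at 1 h, against 186, 162, 178 and 159 RPKM at 0 h. The groups were separate for both genes: Socs3 was 4.71-fold higher at 1 h (log2 change 2.23 ± 0.42 SE, adjusted p = 0.00033) and Cish 1.90-fold higher (0.93 ± 0.16, adjusted p = 0.00014). Socs3 stayed higher than at 0 h after 2 h (1.67, adjusted p = 0.00085) and 6 h (1.39, adjusted p = 0.0043), while Cish at 6 h was within its spread of the 0 h level (-0.03, 95% interval without the 5 libraries -0.18 to 0.12). Socs1, which blocks interferon and IL-4 signalling, moved the other way at first. It had 16.9, 14.9, 16.4 and 16.7 RPKM at 1 h, against 38.4, 36.6, 49.1 and 34.5 RPKM at 0 h, 2.38-fold lower with no overlap (-1.25 ± 0.44, adjusted p = 0.022). By 6 h Socs1 stood at 78.0, 83.4, 79.4 and 90.9 RPKM, 2.09-fold above 0 h (1.06 ± 0.44, adjusted p = 0.033). With all other libraries kept, the Socs1 call at 1 h was lost without WT 0 h replicate 3 (adjusted p = 0.056), and that at 6 h without WT 0 h replicate 1, 2 or 4 or WT 6 h replicate 2 or 4 (adjusted p = 0.054 to 0.067).

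Among the STAT genes of WT cells, Stat5a had the largest fold over 0 h at each time. It had 33.5, 35.8, 36.6 and 31.7 RPKM at 0 h, 77.6, 66.4, 86.2 and 74.7 RPKM at 1 h, 208, 205, 229 and 209.9 RPKM at 2 h, and 244, 253, 248 and 247 RPKM at 6 h. No library of a later time overlapped one of an earlier time, and the rise over 0 h was 2.19-fold, 6.13-fold and 7.13-fold in time order (adjusted p = 0.021, 6.8e-06 and 9.2e-07; 0.050 at 1 h without WT 1 h replicate 3). Stat2 dipped first and then climbed. At 1 h it had 33.5, 28.4, 33.7 and 32.8 RPKM, against 61.5, 66.0, 64.8 and 63.3 RPKM at 0 h, 1.98-fold lower. That dip missed the threshold with all libraries (-0.99 ± 0.45, adjusted p = 0.064) and passed it without the 5 libraries (same change, SE 0.07, adjusted p = 1.5e-11), since all WT libraries are in both fits and only the shared spread differs. Stat2 was then 2.49-fold above 0 h at 2 h (adjusted p = 0.0093) and 4.60-fold above it at 6 h (adjusted p = 9.1e-05), and thus fell and rose in the same hours as Socs1.

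The other STAT genes except Stat6 stood highest at 6 h. At that time Stat5b was 2.85-fold above 0 h (adjusted p = 6e-07), Stat3 2.43-fold (adjusted p = 4.1e-05) and Stat4 1.86-fold (adjusted p = 0.0017), and Stat5b had already passed at 2 h (0.72, adjusted p = 0.0026). With all libraries Stat3 and Stat4 passed at no earlier time; without the 5, Stat4 was higher from 1 h (0.50, adjusted p = 0.00099) and Stat3 from 2 h (0.39, adjusted p = 7.1e-07). Stat6 kept within a narrow band: its WT libraries lay between 70.2 and 90.9 RPKM over the whole course, with a fall of 0.25 ± 0.09 on the log2 scale at 2 h (adjusted p = 0.02; 0.057 without WT 0 h replicate 4). Stat5a and Stat5b are neighbouring near-identical genes (mm9 chromosome 11, 100720665 to 100746483 and 100642045 to 100711899), and how reads shared between them were counted is not given in the sources used here, so their separate levels are uncertain.

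At 1 h of LPS in WT cells 3 members were called higher and 1 lower, where 6.84% of the 11154 genes tested were called higher and 45.5% lower. At 2 h 4 were higher and 1 lower (11.2% and 68.5% of all genes), and at 6 h 7 were higher and 0 lower (14.9% and 60.9%). The counts without the 5 libraries were 4 higher and 3 lower at 1 h (11% and 68.7% of all genes), 8 and 1 at 2 h (14.3% and 74.9%), and 7 and 0 at 6 h (18.6% and 69.6%). The median change of all genes was below 0 at each time, at -0.42, -0.73 and -0.65, while the members' medians were 0.03, 0.59 and 1.28. This matters most for the flattest genes: scaling libraries by the median of ratios raised every WT value relative to 0 h, and Stat6 was then above its 0 h level at 1 h (0.29), 2 h (0.54) and 6 h (0.69) and Cish above its own at 6 h (0.66). From 1 h to 2 h Stat2 rose by 2.30, Socs1 by 1.84, Stat5a by 1.48 and Stat5b by 0.83 on the log2 scale and Cish fell by 0.66, which made 4 members higher and 1 lower (7.24% and 25.6% of all genes), and 5 and 2 without the 5 libraries (14.6% and 57.1%). From 2 h to 6 h 3 members rose, Stat3 by 0.89, Stat5b by 0.79 and Stat6 by 0.25, and 0 fell (26.1% and 19.5% of all genes), with 7 higher and 2 lower without the 5 libraries (42.5% and 31.7%).

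In the comparison of genotypes, Stat4 was the member called lower in dKO cells at all 4 times with all libraries and also without the 5. Stat4 carries the IL-12 signal in T and NK cells and is also made in dendritic cells. At 0 h it had 7.90, 9.67, 8.69 and 5.07 RPKM in dKO libraries, against 21.5, 18.7, 26.3 and 23.1 RPKM in WT libraries. At 1 h it had 11.2, 9.90, 11.4 and 11.5 RPKM in dKO libraries, against 32.3, 28.0, 34.3 and 32.3 RPKM in WT libraries. The groups did not overlap at either time, and replicate 2 of dKO, off its label at both, lay among or near the other dKO libraries. At 2 h Stat4 had 11.9, 5.62, 16.3 and 14.9 RPKM in dKO libraries, against 30.4, 28.6, 33.9 and 30.1 RPKM in WT libraries. At 6 h it had 27.1, 21.4, 28.4 and 11.4 RPKM in dKO libraries, against 46.2, 38.5, 40.5 and 42.3 RPKM in WT libraries. The groups were separate again, and the highest dKO library of any time, at 28.4 RPKM, barely passed the highest unstimulated WT library. With all libraries the log2 change was -1.48 ± 0.24 at 0 h (adjusted p = 0.00011), -1.48 at 1 h (adjusted p = 8.4e-05), -1.40 at 2 h (adjusted p = 0.00017) and -0.99 at 6 h (adjusted p = 0.0054). The 6 h difference with all libraries missed the threshold after scaling by the median of ratios (-0.83, adjusted p = 0.073) or by quantiles (-0.84, adjusted p = 0.069), and that at 2 h when the fit held only the libraries compared (adjusted p = 0.056). Without the 5 libraries the dKO mean was 32.2%, 35.8%, 45.8% and 61.2% of the WT mean in time order, and each time was called lower. Of the 5 dendritic cell markers, Cd209a, Ciita and Flt3 were also called lower in dKO cells at 0 h with all libraries. In the same fit Flt3 and Zbtb46 were called lower at 1, 2 and 6 h, and Itgax was called at no time. The part of dendritic cell content in the Stat4 difference was not tested.

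Stat5a was lower as well, by less. In libraries that matched their label it had 22.7, 28.7 and 21.3 RPKM in dKO cells at 0 h, against 33.5, 35.8, 36.6 and 31.7 RPKM in WT cells. At 1 h it had 47.4, 37.4 and 36.7 RPKM in dKO cells, against 77.6, 66.4, 86.2 and 74.7 RPKM in WT cells. These groups did not overlap at any of the 4 times, and the dKO mean was 70.4%, 53.2%, 64.1% and 77.1% of the WT mean at 0, 1, 2 and 6 h (adjusted p = 0.00081, 3.5e-07, 0.00016 and 0.0058). At 2 h the dKO group held only 2 libraries, at 112.6 and 160.5 RPKM (SD 33.9). With all libraries only the 2 h difference passed (-1.21 ± 0.40, adjusted p = 0.044), and it rested on dKO 2 h replicate 2, a library nearest to unstimulated WT cells: without it the change was -0.53 (adjusted p = 0.19).

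Stat2 differed most before LPS. It had 35.5, 19.6, 38.7 and 31.8 RPKM in dKO cells at 0 h, the second value from the library off its label, against 61.5, 66.0, 64.8 and 63.3 RPKM in WT cells. The groups were separate with or without that library, although with all libraries the test did not pass (-1.06 ± 0.45, adjusted p = 0.18), and without the 5 it did (-0.85 ± 0.08, adjusted p = 1.1e-08). The gap narrowed with LPS: the dKO mean without the 5 was 55.3% of WT at 0 h, 79.0% at 1 h, 89.9% at 2 h and 95.4% at 6 h. At 6 h Stat2 had 271, 282 and 295 RPKM in those dKO libraries, against 281, 313, 313 and 278 RPKM in WT libraries, and the interval of the log2 difference was -0.23 to 0.10.

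Stat3, Stat5b and Stat6 were not called with all libraries and were called lower in dKO cells without the 5, mostly at 1 h and 2 h. Stat3, at 42.2 ± 1.87 RPKM in dKO (SD, n = 3) and 53.6 ± 1.89 RPKM in WT cells at 1 h, was lower by 0.34 ± 0.06 on the log2 scale. Stat5b at 2 h had 23.1 and 27.6 RPKM in dKO cells, against 33.8, 33.4, 36.4 and 33.5 RPKM in WT cells, and was lower by 0.43 ± 0.07. Stat6 was lower by 0.15 at 1 h, 0.26 at 2 h and 0.12 at 6 h. Of these differences, those of Stat3 at 1 h and 2 h and of Stat5b and Stat6 at 2 h also passed after scaling by the median of ratios, which put Stat3 at 6 h above WT by 0.20.

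With all libraries 0 of the 3 SOCS genes were called between genotypes at any time, and without the 5 each was called lower in dKO cells at 1 or more times. Socs3 at 0 h had 106, 95.4 and 65.3 RPKM in the dKO libraries that matched their label, against 114, 115, 119.7 and 104 RPKM in WT libraries, so 1 dKO library fell inside the WT range. The change was -0.38 ± 0.11 (adjusted p = 0.0095) without the 5 libraries, and 0.31 ± 0.42 (adjusted p = 0.69) with dKO 0 h replicate 2, which had 589.7 RPKM, inside the 1 h range of WT. At 6 h the Socs3 difference without the 5 was -0.05, with an interval of -0.27 to 0.17. Cish at 2 h had 168, 164, 146 and 150.0 RPKM in dKO libraries, against 212, 217, 197 and 198 RPKM in WT libraries. All 4 dKO libraries were below all WT libraries, including the 2 off their label, with a change of -0.39 (adjusted p = 0.10) in all libraries and -0.40 ± 0.09 (adjusted p = 0.0011) without the 5. Socs1 without the 5 was lower in dKO cells at 1 h (14.6, 9.28 and 9.90 RPKM in dKO, against 16.9, 14.9, 16.4 and 16.7 RPKM in WT) and at 2 h (37.0 and 44.6 RPKM in dKO, against 49.8, 55.9, 56.9 and 78.0 RPKM in WT), by 0.53 ± 0.16 and 0.54 ± 0.18 on the log2 scale (adjusted p = 0.0097 and 0.023).

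**Figure D2:**
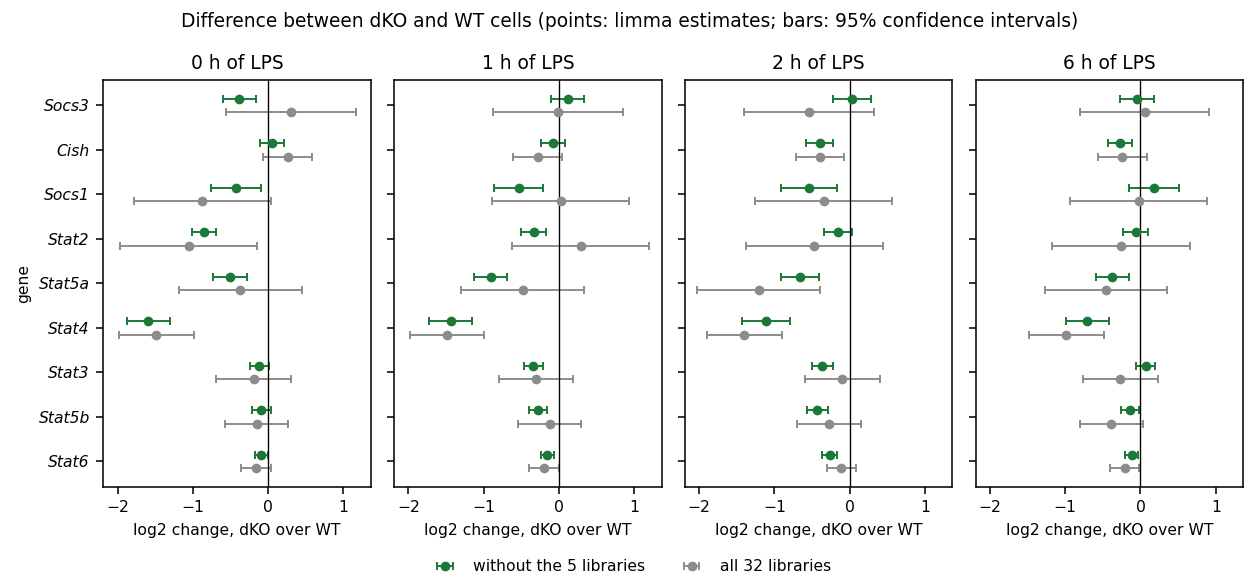
Log2 of dKO over WT for each of the 9 genes at 0, 1, 2 and 6 h of LPS, with 95% intervals; green is without the 5 libraries and grey with all 32. Stat4 lies left of 0 at each time in both fits, and Stat2 moves towards 0 as LPS time grows in the green points.

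With all libraries the members called lower in dKO cells numbered 1 at 0 h, 1 at 1 h, 2 at 2 h and 1 at 6 h, where 5.91%, 9.02%, 7.24% and 10.2% of all genes tested were called lower. With limma 0 of the 9 were called higher (0.932%, 1.84%, 5.15% and 4.55% of all genes), and the 2, 2, 3 and 2 members with an unadjusted p under 0.05 all had lower values in dKO cells. All dKO libraries lay below all WT libraries for 3, 3, 3 and 4 members, where 22.9%, 26.4%, 7.41% and 23% of all genes did so. In the fit without the 5 libraries 4, 7, 7 and 4 members were lower and 0 higher (19.4%, 29.4%, 23.8% and 33% of all genes lower; 6.75%, 9.8%, 9.29% and 13.9% higher), and the dKO group lay below the WT group for 4, 7, 7 and 4 members (25.9%, 31.7%, 31.2% and 31.3%). The members' median change in that fit was -0.38, -0.34, -0.40 and -0.12 in time order, beside -0.06, -0.11, -0.09 and -0.12 for all genes. Leaving out the 5 and scaling by the median of ratios gave 4, 4, 6 and 1 members lower and, at 6 h, 1 higher. With all libraries a count of 1 of 9 was close to the background, and at 6 h a count of 4 of 9 without the 5 was also not far above it.

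LPS moved these genes in dKO cells too, with a larger fold over 0 h for Stat2 and Stat4 once the 5 libraries were left out. Stat2 at 6 h was 7.92-fold above 0 h in dKO and 4.60-fold in WT cells, and Stat4 3.44-fold in dKO and 1.86-fold in WT cells. In RPKM Stat4 went from 7.22 to 25.6 in dKO and from 22.4 to 41.9 in WT cells. Its larger fold thus started from a lower level. Stat5a was 7.81-fold above 0 h in dKO and 7.13-fold in WT cells, and Socs3 at 1 h 6.65-fold in dKO and 4.71-fold in WT cells. Socs1 dipped at 1 h in dKO cells too, by 1.36 on the log2 scale. In dKO cells without the 5 libraries, 4 members were higher and 5 lower at 1 h (9.49% and 67.8% of all genes), 6 and 1 at 2 h (13.8% and 72.3%) and 7 and 1 at 6 h (18.8% and 68.5%). With all libraries the counts were 3 and 1 at 1 h (5.82% and 44.1%), 4 and 1 at 2 h (9.17% and 53.8%) and 7 and 1 at 6 h (14.7% and 60.2%). Leaving out 1 library moved these counts: at 1 h 1 member was called without dKO 0 h replicate 1, 3 or 4, and at 2 h 9 were called without dKO 2 h replicate 2 and 2 without dKO 2 h replicate 4. The member that fell at 6 h was Cish, to 139 ± 19.2 RPKM (SD, n = 3) against 177 ± 12.9 RPKM at 0 h.

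The differences between genotypes in the LPS response were tested directly. With all libraries 0 members differed at 1, 2 or 6 h (0.0359%, 0.305% and 0.923% of all genes did either way), and the unadjusted p was under 0.05 for 2 members at 1 h, Stat2 and Cish, and for 1 member, Cish, at 2 h and at 6 h. Once the 5 libraries were left out, the Stat2 response was larger in dKO cells by 0.51 ± 0.11 at 1 h, 0.69 ± 0.12 at 2 h and 0.78 ± 0.11 at 6 h (adjusted p = 0.013, 0.00063 and 2e-05). The Stat4 response at 6 h was larger by 0.89 ± 0.19 (adjusted p = 0.0018). Cish responded less in dKO cells at 2 h (-0.45 ± 0.12, adjusted p = 0.021) and 6 h (-0.32 ± 0.11, adjusted p = 0.038), and Stat5b less at 2 h (-0.35 ± 0.09, adjusted p = 0.022). These made 1, 3 and 3 members in time order, where 1.8%, 5.62% and 20.3% of all genes differed either way. The 3 responses of a genotype share its 0 h libraries, so the low dKO 0 h levels of Stat2 and Stat4 enter each of them.

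**Figure D3:**
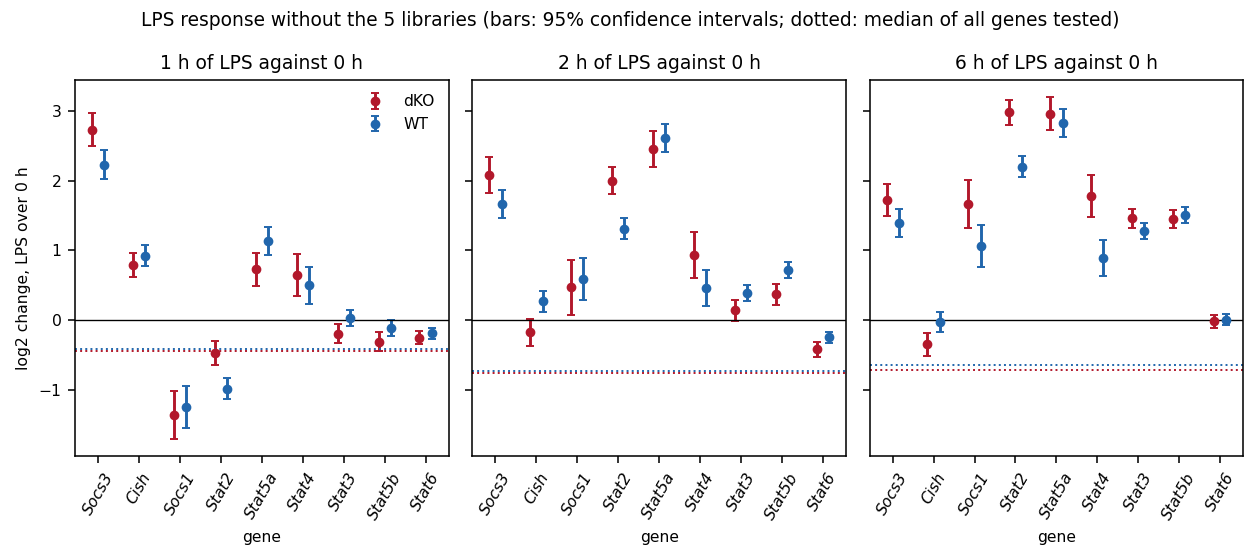
Log2 change of LPS over 0 h for each of the 9 genes at 1, 2 and 6 h, in dKO (red) and WT (blue) cells without the 5 libraries, with 95% intervals; the dotted lines are the medians of all genes. The Stat2 points of dKO lie above those of WT at each time, and Socs3 is the gene farthest above the dotted line at 1 h and Stat5a at 2 h in both genotypes.

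Most tested ligands of this pathway were called higher after LPS, and the receptors went both ways. Of 21 listed cytokines that signal through JAK and STAT, 15 reached the expression filter. Of these 15, 13, 14 and 13 were called higher and 0 lower at 1, 2 and 6 h in WT cells. The shares of all genes called higher were 6.84%, 11.2% and 14.9%. A cytokine near 0 RPKM before LPS can pass the filter only through LPS libraries. The lack of falls was thus partly set by the filter. At 6 h Il12b, a subunit of the IL-12 that activates STAT4, was up by 9.66 ± 1.58 and Il6, the STAT3 activator, by 8.45 ± 1.54 on the log2 scale with all libraries. Of 27 receptor chains 25 were tested, and 9 were higher and 9 lower at 6 h (14.9% and 60.9% of all genes). Il15ra, the IL-15 receptor chain, rose by 3.40 ± 0.54 in the same fit, whereas Csf1r, the M-CSF receptor (-3.80 ± 0.40), and Ifngr1, a chain of the interferon gamma receptor (-3.09 ± 0.35), fell. Between genotypes with all libraries, 0 ligands were higher and 0, 1, 2 and 1 lower at 0, 1, 2 and 6 h, and receptors gave 0, 1, 5 and 2 higher and 0, 0, 2 and 2 lower. Of all genes 0.932%, 1.84%, 5.15% and 4.55% were higher and 5.91%, 9.02%, 7.24% and 10.2% lower. Leaving out the 5 libraries, ligands gave 1, 1, 0 and 5 higher and 3, 6, 4 and 3 lower, and receptors 6, 6, 6 and 8 higher and 6, 9, 6 and 2 lower. The shares of all genes were then 6.75%, 9.8%, 9.29% and 13.9% higher and 19.4%, 29.4%, 23.8% and 33% lower. Il2ra, the alpha chain of the IL-2 receptor, was lower in dKO cells by 0.91 ± 0.15 at 0 h and 1.23 ± 0.15 at 1 h in that fit, and Csf1r was higher at 6 h by 0.78 ± 0.06.

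The JAK kinases and Irf9, the STAT2 partner, moved less. All 5 were tested, and 1, 2 and 1 were higher at 1, 2 and 6 h of LPS in WT cells and 0, 2 and 0 lower. Of all genes 6.84%, 11.2% and 14.9% were higher and 45.5%, 68.5% and 60.9% lower. With all libraries 1 of them was lower in dKO cells, Jak2 at 1 h (-0.59 ± 0.14, adjusted p = 0.0051), which transmits GM-CSF and IL-12 signals, and 1 was higher at 1 h. At 1 h 9.02% of all genes were lower and 1.84% higher. Without the 5 libraries 3, 3, 2 and 0 were lower and 0, 1, 1 and 1 higher (19.4%, 29.4%, 23.8% and 33% of all genes lower, and 6.75%, 9.8%, 9.29% and 13.9% higher). In that fit Irf9 was lower by 0.53 ± 0.07 at 0 h and 0.47 ± 0.07 at 1 h. Tyk2, a kinase of the interferon receptor, was lower by 0.26 ± 0.06 at 0 h and 0.61 ± 0.07 at 2 h.

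Of the 16 other negative regulators of the pathway, 0 were higher and 6 lower at 1 h of LPS in WT cells. At 2 h the counts were 4 and 10, and at 6 h 2 and 5. Of all genes 6.84%, 11.2% and 14.9% were higher and 45.5%, 68.5% and 60.9% lower. Whether these counts set the regulators apart was not tested. Usp18, which removes ISG15 from proteins and blocks the interferon receptor, was up by 4.18 ± 0.83 at 6 h with all libraries, while Socs6 fell by 2.12 ± 0.32 and the phosphatase gene Ptpn1 by 0.79 ± 0.15. With all libraries 0, 0, 1 and 2 of the 16 were higher in dKO cells and 0, 1, 0 and 2 lower in time order. Of all genes 0.932%, 1.84%, 5.15% and 4.55% were higher and 5.91%, 9.02%, 7.24% and 10.2% lower. Without the 5 libraries 0, 2, 3 and 3 were higher and 3, 8, 9 and 7 lower. The shares of all genes were then 6.75%, 9.8%, 9.29% and 13.9% higher and 19.4%, 29.4%, 23.8% and 33% lower. Usp18 was lower in dKO cells at 0 h by 1.56 ± 0.15 and at 1 h by 1.64 ± 0.15 without the 5 libraries. Socs2, a relative of Cish, was lower at 6 h in both fits (-0.87 ± 0.22, adjusted p = 0.0071, with all libraries and -0.63 ± 0.08 without the 5).

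Interferon targets of the STAT2 complex were low in unstimulated dKO cells. Whether the RNA level of Stat2 bears on these targets was not tested. At 0 h 15 of 15 targets were called lower without the 5 libraries, from -1.97 to -0.80 on the log2 scale with a median of -1.53, beside -0.06 for all genes. Of all genes 19.4% were called lower in that fit. Isg15, an interferon-induced ubiquitin-like protein, stood at 7.97 ± 1.03 RPKM in dKO (SD, n = 3) and 25.7 ± 3.14 RPKM in WT cells (SD, n = 4) at 0 h. Ifit1, which binds foreign RNA, stood at 1.26 ± 0.110 RPKM in dKO and 4.86 ± 0.462 RPKM in WT cells. With all libraries 2 of 15 were lower at 0 h (5.91% of all genes), among them Oas2 (-2.18 ± 0.56, adjusted p = 0.014), a sensor of double-stranded RNA, and 0 passed at the later times. The library of dKO 0 h replicate 2, off its label, had 432 RPKM of Isg15 and 104 RPKM of Ifit1. After LPS the picture changed without the 5 libraries: 5 were higher and 6 lower at 1 h, 1 and 6 at 2 h, and 6 and 0 at 6 h. Of all genes 9.8%, 9.29% and 13.9% were higher and 29.4%, 23.8% and 33% lower at these times. Ifit1 was then higher in dKO cells at 6 h by 0.73 ± 0.10, Rsad2 by 1.07 ± 0.15 and Cmpk2 by 1.23 ± 0.17. The LPS response of these targets was larger in dKO cells for 10, 13 and 15 of 15 at 1, 2 and 6 h without the 5 libraries and smaller for 0, with medians of 1.02, 1.22 and 1.94, beside -0.04, -0.01 and -0.04 for all genes. Of all genes 1.8%, 5.62% and 20.3% differed either way. All 3 responses subtract the same dKO 0 h libraries, in which all 15 were already lower, so these counts are not separate from the 0 h difference. With all libraries 0 of the 15 differed in response at any time. In WT cells LPS raised 7, 13 and 15 of them at 1, 2 and 6 h (6.84%, 11.2% and 14.9% of all genes).

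**Figure D4:**
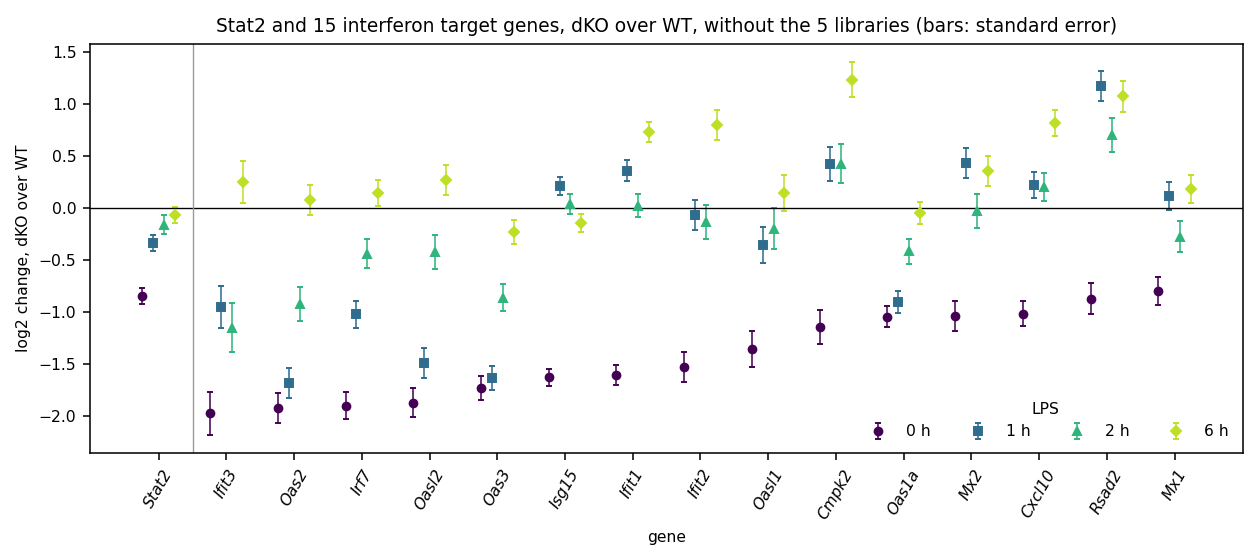
Log2 of dKO over WT for Stat2 and 15 interferon targets at 0, 1, 2 and 6 h of LPS without the 5 libraries, with SE bars. All 15 targets and Stat2 lie below 0 before LPS, and at 6 h 6 targets were called higher.

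Targets of STAT5 that were called between genotypes were lower in dKO cells. Whether the RNA level of Stat5a or Stat5b bears on these targets was not tested. Of 7 tested, 0, 0, 1 and 1 were lower with all libraries in time order (5.91%, 9.02%, 7.24% and 10.2% of all genes). Without the 5 libraries 3, 5, 4 and 4 were lower (19.4%, 29.4%, 23.8% and 33%), and 0 were higher in either fit. The call at 6 h with all libraries was Socs2, also counted among the other negative regulators, and Osm and Pim1 stand in other lists too. Bcl2l1, which encodes the survival protein BCL-XL, stood at 129 ± 21.7 RPKM in dKO (SD, n = 2) and 300.3 ± 11.4 RPKM in WT cells (SD, n = 4) at 2 h. Its change was -2.12 ± 0.34 with all libraries (adjusted p = 6.6e-05) and -1.23 ± 0.09 without the 5, and its LPS response at 2 h was smaller in dKO cells in both fits (-2.39 ± 0.48, adjusted p = 0.021, with all libraries and -1.17 ± 0.12 without the 5). Ccnd2, the cell cycle gene of cyclin D2, was lower by 0.42, 0.79, 0.88 and 0.41 at 0, 1, 2 and 6 h without the 5 libraries. LPS itself raised 5, 3 and 3 of the 7 and lowered 1, 2 and 1 in WT cells. Of all genes 6.84%, 11.2% and 14.9% were higher and 45.5%, 68.5% and 60.9% lower.

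STAT3 and STAT6 targets had members on both sides. With all libraries 0.932%, 1.84%, 5.15% and 4.55% of all genes were higher in dKO cells and 5.91%, 9.02%, 7.24% and 10.2% lower. Without the 5 libraries the shares were 6.75%, 9.8%, 9.29% and 13.9% higher and 19.4%, 29.4%, 23.8% and 33% lower. Of 9 STAT3 targets 0, 0, 1 and 1 were higher in dKO cells and 0, 0, 2 and 3 lower with all libraries. Without the 5, 0, 1, 2 and 3 were higher and 1, 4, 2 and 3 lower. Il10ra and Il4ra are counted among the receptor chains too. With all libraries Il10ra was lower at 2 h and Il4ra at 6 h, so these calls stand in both lists. Bcl3, an atypical inhibitor of NF-kappaB, was lower at 6 h in both fits (-0.78 ± 0.20 with all libraries and -0.81 ± 0.12 without the 5). Of 13 STAT6 targets 11 were tested, and 3, 2, 2 and 4 were higher and 1, 1, 2 and 1 lower with all libraries. Retnla, a secreted protein typical of macrophages exposed to IL-4, stood above WT in dKO cells at 0 h by 3.30 ± 0.64 (adjusted p = 0.00096) and Arg1, the arginine-degrading enzyme arginase, at 6 h by 3.10 ± 0.43 (adjusted p = 6.7e-06), while the lectin gene Cd209a was lower at 0 h by 2.17 ± 0.35 (adjusted p = 8.9e-05). The STAT6 targets gave, without the 5 libraries, 3, 3, 3 and 4 higher and 3, 4, 4 and 3 lower, and the chemokine gene Ccl22 was lower at 0 h by 1.20 ± 0.15. In WT cells LPS raised 5, 5 and 5 of the STAT3 targets and lowered 0, 3 and 2, and raised 3, 3 and 3 of the STAT6 targets and lowered 0, 3 and 6. Of all genes 6.84%, 11.2% and 14.9% were higher and 45.5%, 68.5% and 60.9% lower. Of the 6 macrophage and monocyte markers 0 were called at 0 h with all libraries, and without the 5 libraries Cd14, Mertk and Csf1r were higher in dKO cells and Ly6c2 and Emr1 lower; their part in these values was not tested.

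The genes whose pattern lay nearest each member were found by the root mean square difference of log2(RPKM + 0.5) over all 32 libraries, each gene centred on its own mean. Stat2 lay nearest Dtx3l at 0.172, Trim21 at 0.241 and Eif2ak2 at 0.249, small beside the 1.36 that Stat2 itself varied over the libraries. Stat3 lay nearest Map2k1 (0.0929), Stat4 nearest H2-Eb2 (0.264), an MHC class II gene, and Stat5a nearest Abtb2 (0.211) and, in the third place, Cd86 (0.280), a costimulatory molecule. The nearest gene to Stat5b was Atl3 (0.120) and to Stat6 Becn1 (0.0812), where Stat6 itself varied by only 0.171. Socs1 lay nearest Adar (0.317), Socs3 nearest Skil (0.215) and Cish nearest Dot1l (0.173). Among the members themselves, Stat3 and Stat5b lay closest at 0.181, and Stat2 and Socs1 were 0.509 apart. These distances describe libraries that share their groups and, for 5 of them, a state other than the label.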

How the data were processed

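RNA from 32 libraries was sequenced after Trizol extraction and Illumina TruSeq library preparation, per the labels' protocols. The authors deposited 1 table per library with RPKM per gene and a total signal (base coverage) per gene; CASAVA 1.8.2 and the mm9 build are named in the submitters' processing notes, and the counting of shared reads or strand is not given in the sources used here. The deposited coverage summed to 1.27 to 1.87 Gb per library and was used as a measure of depth only; no read counts were used, so no counting intervals are given. Of 22216 gene entries, 23 repeated a symbol and stayed separate rows, and 11154 with at least 1 RPKM in at least 4 libraries were tested. Values were log2(RPKM + 0.5), so fold changes of low genes are understated. limma 3.58.1 in R 4.3.3 (moderated, with intensity trend) was fitted to 8 group means over 32 libraries, and again over 27, with Benjamini-Hochberg adjustment over all genes tested within each of 15 comparisons and a threshold of 0.05. The fit was run on simulated data with independent normal noise per gene and no library off its label. That run therefore does not bear on the effect of the 5 libraries. No value was imputed.

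The members, the 8 pathway lists and 7 marker lists were chosen with earlier results of these data known. Named list genes are up to 3 with the smallest adjusted p among those called per list and comparison, plus any a count needs. Same-numbered libraries of both genotypes were not paired. Alternatives were the pseudocount (0.1 or 1), scaling by the median of ratios or by quantiles, a filter of 5 RPKM or none, a replicate block, only the libraries of the groups compared, without the 5 libraries, and leaving out each library. Leaving out the 5 libraries together with median-of-ratios scaling was added after the data were seen.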

Additional observations from a re-analysis of the deposited data

Results flagged for a closer look

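In 14 of 72 groups of 4 libraries, 1 library stood apart from the other 3, its gap as a share of the group's range being above Dixon's 95% critical value, where chance would mark about 1 in 20 groups; 12 of the 14 were among the 5 dKO libraries whose LPS state goes against the label. In dKO 0 h replicate 2 these were Socs3 at 589.7 RPKM and Cish at 318 RPKM. In dKO 1 h replicate 2 they were Stat2 at 145 RPKM, Stat5a at 132 RPKM, Stat5b at 24.3 RPKM, Socs1 at 53.8 RPKM, Socs3 at 405 RPKM and Cish at 177 RPKM. In dKO 2 h replicate 4 it was Stat3 at 135 RPKM. In dKO 6 h replicate 4 they were Stat3 at 52.9 RPKM, Stat5b at 27.0 RPKM and Stat6 at 60.9 RPKM. The others were WT libraries with small gaps: Stat5b at 36.4 RPKM in WT 2 h replicate 3 and Cish at 299.6 RPKM in WT 1 h replicate 4.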

How the results depend on the processing

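With all libraries as labelled, the members called numbered 1, 1, 2 and 1 for dKO against WT at 0, 1, 2 and 6 h, 4, 5 and 7 for LPS in WT cells at 1, 2 and 6 h, 3 for WT 6 h against 2 h, 4, 5 and 8 for LPS in dKO cells and 0 for each response difference. Other pseudocounts and a filter of 5 RPKM changed none of the 135 member calls examined. Without the 5 libraries the counts for dKO against WT were 4, 7, 7 and 4, for WT LPS at 1 h 7, at 2 h 9 and from 2 h to 6 h 9, for dKO LPS at 1 h 9, and for the response differences 1, 3 and 3. Adding median-of-ratios scaling, chosen after seeing the data, gave 4, 4, 6 and 2 for dKO against WT and 1, 2 and 3 for the differences. With only the libraries of the groups compared the counts for dKO against WT were 2, 2, 0 and 2, for WT LPS at 1 h 7, at 2 h 9 and from 2 h to 6 h 9, and for dKO LPS at 1 h 1 and at 2 h 0. For dKO against WT at 2 h, scaling by the median of ratios or by quantiles, leaving out the filter, and the replicate block each gave 1, as Stat5a was lost (adjusted p = 0.055 to 0.075), and at 6 h both scalings gave 0, with Stat4 at -0.83 (adjusted p = 0.073) and -0.84 (adjusted p = 0.069). Median-of-ratios scaling gave 9 for WT LPS at 2 h and 8 for dKO LPS at 2 h. For dKO LPS, no filter gave 1 at 1 h and 3 at 2 h.

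Libraries with the same replicate number and time in dKO and WT had deviations correlated above 0.1 in 1 of 16 pairs. Between times, same-numbered libraries did so in 5 of 24 pairs within dKO and in 16 of 24 within WT. Within WT all 24 correlations were above 0 (median 0.14, lowest 0.022). The dKO pairs include libraries off their label. The labels do not say whether same-numbered libraries share a source. The main fit did not pair them, so its p-values leave out any such pairing. The replicate block gave 2 members for dKO LPS at 1 h, and a replicate block within genotype gave 1 at 1 h and 3 at 2 h.

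Some signs turned. Without the 5 libraries Socs3 for dKO against WT at 0 h was -0.38 (-0.30 with median-of-ratios scaling), Socs1 at 1 h -0.53 (-0.42), Stat2 at 1 h -0.34, and Stat2 in dKO LPS at 1 h -0.47; Stat3 for dKO against WT at 6 h was 0.20 with both changes. Under median-of-ratios scaling with all libraries Stat6 was 0.29 and 0.54 for WT LPS at 1 and 2 h, 0.25 from 1 h to 2 h, and 0.24, 0.30 and 0.60 for dKO LPS at 1, 2 and 6 h, and Cish was 0.66 for WT LPS at 6 h and 0.11 and 0.11 for dKO LPS at 2 and 6 h. The causes were not tested.

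Leaving out 1 library at a time gave 1 to 1 members for dKO against WT at 0, 1 and 6 h and 1 to 3 at 2 h, 3 to 4, 4 to 5 and 6 to 7 for WT LPS, 5 to 5 for WT 2 h against 1 h and 2 to 3 for 6 h against 2 h, 1 to 5, 2 to 9 and 7 to 8 for dKO LPS, and 0 to 0 for the differences. Stat5a for dKO against WT at 2 h was lost without any WT 2 h replicate (adjusted p = 0.078 to 0.097). Socs1 in WT was lost at 1 h without WT 0 h replicate 3 (adjusted p = 0.056) and at 6 h without WT 0 h replicate 1, 2 or 4 or WT 6 h replicate 2 or 4 (adjusted p = 0.054 to 0.067). Stat5b for dKO against WT at 2 h passed without dKO 2 h replicate 4 (-0.55, adjusted p = 0.038). Depth per gene is unknown, as RPKM carries no counts.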
